A study of Mus musculus with 6 samples.

Results

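Ribosome biogenesis genes of the nucleolus are described here: 38 genes whose products make or process ribosomal RNA and assemble it with ribosomal proteins. They were chosen by name, with earlier results of these data known. Of these, 31 were found because the name printed in the array files equals the listed symbol (Nol1 is now called Nop2, Nol5 Nop58 and Nol5a Nop56). The other 7 (Polr1a, Polr1b, Polr1c, Polr1d, Dkc1, Rrp9 and Rrp1b) stand in the files under older names and were found through RefSeq, so counts are given for the 31 and for all 38, among 15416 genes tested. Each gene is read from the probe with the highest mean log2 signal over both groups, which is a choice on brightness and not on the difference between the groups. All 38 passed the filter on dim probes, and their probes were well above background on all 6 arrays.

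The cells were 4T1.2, a line from a mammary tumour of the BALB/c mouse strain, and carried either the empty pMSCV retroviral vector (base vector) or the same vector with IRF7, a transcription factor of the type I interferon response. Both populations were selected with puromycin, and each is a pool of several single-cell clones, so each group stands for 1 pooled population in culture with no other treatment. There are 3 single-colour arrays per group, from 3 independent experiments per the design text. Slide 1 held the 3 IRF7 arrays together with replicate 1 of the base vector, slide 2 held the remaining base-vector arrays, and each slide had its own scan, as recorded in the file headers.

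The introduced gene separated the groups, with Irf7 at 195 to 246 signal units on base-vector arrays and 4486 to 5012 on IRF7 arrays (limma adjusted p = 3.17e-07 for a log2 change of 4.28, SE 0.049). Between 54.3% and 59.7% of the 43379 probe spots of an array were well above background. Of 8 mammary epithelial markers, 6 were above background on all arrays of both groups, while Krt19 and Cldn4 were on none, and their summed signal was 393930 to 456150 on base-vector and 511080 to 566570 on IRF7 arrays, without overlap. Summed fibroblast marker signal was 6408 to 7323 in the base-vector and 3201 to 3657 in the IRF7 arrays (2 of 5 markers above background on all arrays of each group, Col1a1 and Thy1 on none), and the part of either sum in the results below was not tested. The sums of 6 myeloid markers were 608 to 693 and 698 to 924, with Itgam on no array. Of these markers, 1 was above background on all base-vector arrays and 2 on all IRF7 arrays. The sums of 5 lymphocyte markers were 209 to 483 and 291 to 327, with 2 above background on all arrays of each group and Ms4a1 and Cd79a on none. Endothelial sums over 4 markers were 155 to 173 and 309 to 340, with 1 above background on all arrays of each group and Pecam1 and Kdr on none. Fat sums over 3 markers were 27.7 to 45.8 and 120 to 277, with Adipoq on none. Of the fat markers, 0 were above background on all base-vector arrays and 1 on all IRF7 arrays.

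Ribosomes are built in the nucleolus. RNA polymerase I copies the ribosomal DNA into a long precursor, small nucleolar ribonucleoproteins (snoRNPs) guide its cleavage and chemical modification, the small subunit processome folds the part that becomes the 40S subunit, and a separate set of assembly factors matures the 60S subunit. The transcription factor Myc is a well-known activator of these genes, and their output is tied to cell growth.

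More of these genes were higher than lower in the IRF7 cells, by small amounts. Of the 31 genes found by name, 24 rose, 3 fell and 4 did not pass the test. Of all 38, 30 rose, 4 fell and 4 did not pass, at an adjusted p threshold of 0.05. Among all genes tested, 61.0% were called in either direction, 31.9% higher and 29.1% lower. The median log2 change of the 38 was 0.35 (1.27-fold) and of the 31 it was 0.35, beside 0.03 for all genes tested. No listed gene changed 2-fold, where 949 of the 15416 genes tested did so in either direction. At least 1.5-fold higher were 9 of 38, against 8.47% of all genes. The single changes ran from -0.26 for Npm1 to 0.85 for Nolc1.

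All 3 IRF7 arrays lay above all 3 base-vector arrays in 30 of the 38 genes and below them in 4, where 35.6% and 32.2% of all genes tested did so. Measured from each gene's base-vector mean, the median of the 38 was 0.36, 0.34 and 0.36 on IRF7 replicates 1, 2 and 3, and 0.01, -0.03 and 0.02 on base-vector replicates 1, 2 and 3. The 3 IRF7 arrays therefore lay within a narrow band. With slide as a fixed block 27 of the 38 rose and 4 fell, beside 23.7% of all genes called higher and 22.6% lower in that fit. On slide 1 alone 26 rose and 3 fell, beside 25% and 23.8% of all genes. The median of the 38 was 0.35 in both, and both take the change from the same 4 arrays. Base-vector replicate 1 is the only array of its group there, so it is assumed to vary like the IRF7 arrays, and values on slide 1 below rest on that assumption and on fewer arrays.

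The listed genes differed in how many rose at each level of signal. In the top 10% of all genes by level, 6 of 11 listed genes rose and 3 fell (median 0.14), while 37.7% of all genes at that level were called higher and 27.9% lower. From the 75th to the 90th percentile, 6 of 7 rose and 1 fell (median 0.32, beside 39.9% and 30.3% of all genes there). Between the middle and the 75th percentile, 11 of 12 rose and none fell (median 0.62, beside 38.7% and 33.2%). Below the middle, 7 of 8 rose and none fell (median 0.32, beside 24.9% and 26.9%). The brightest spots were read from a second scan at low gain that the software scales up. Of 11 listed genes read that way on at least 1 array, 6 rose and 3 fell, and of the 1598 genes read that way 40.4% were called higher and 26.7% lower, with a median log2 change of 0.05. The part of that scan in the lower values of the brightest listed genes was not tested.

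**Figure D1:**
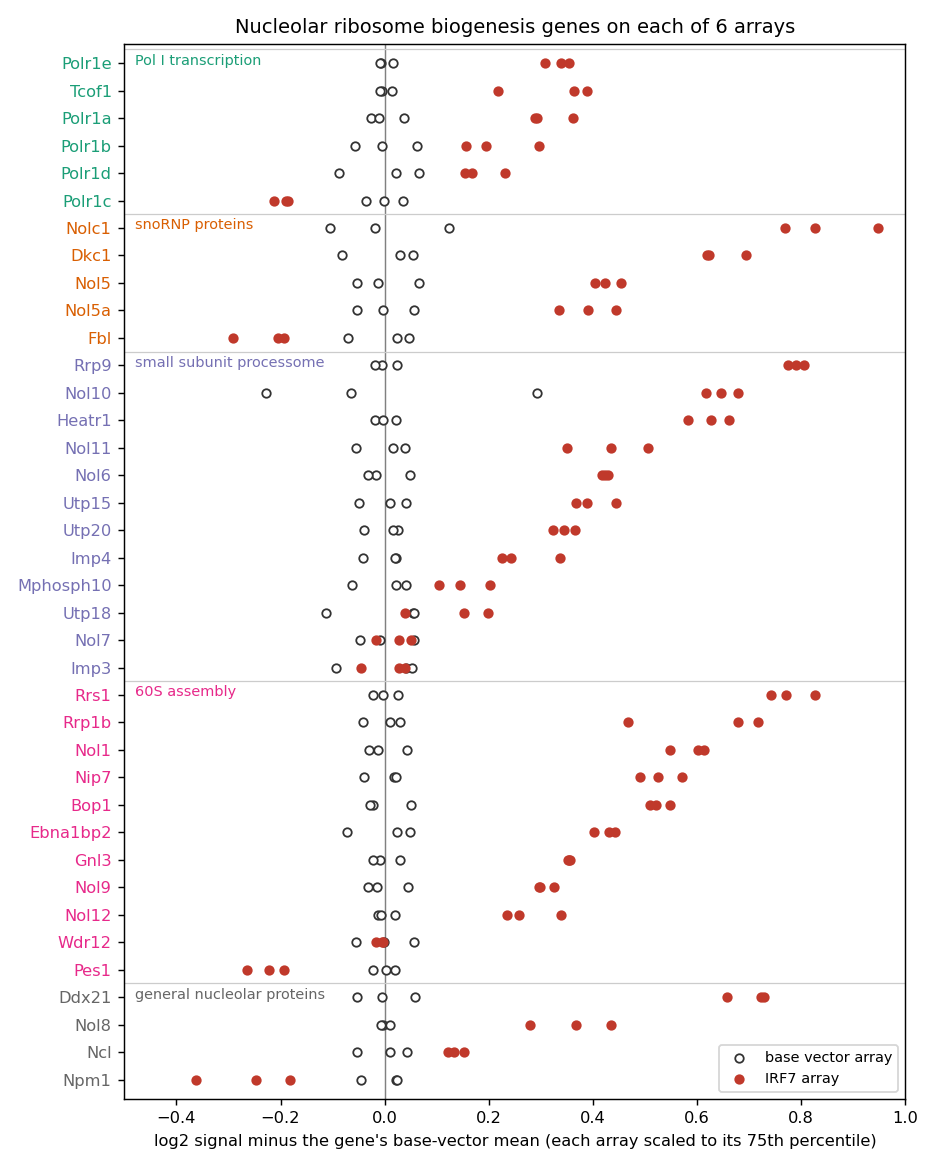
Each row is a listed gene and each point an array: open circles are the 3 base-vector arrays and red points the 3 IRF7 arrays, on the log2 scale after subtracting the gene's base-vector mean, with genes grouped by role. In 30 rows all red points lie to the right of the open circles and in 4 rows (Polr1c, Fbl, Pes1, Npm1) to the left.

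RefSeq promoter sequences (GRCm38.p6, from 250 bases before to 50 after the gene start) were on hand for 32 of the 38 genes and 9972 of the genes tested. The E-box that Myc binds (CACGTG, either strand) stood in 6 of the 32 promoters (18.8%) and in 11.4% of promoters of tested genes (7.15% of all promoters in the table). The core that interferon regulatory factors bind (GAAANNGAA, either strand) stood in 4 of 32 (12.5%) and in 8.36% (8.56% of all). The ETS motif CCGGAAGT stood in 7 of 32 (21.9%) and in 8.99% (3.89% of all), NRF1's GCATGCGC in 0 of 32 and in 5.80% (2.71% of all), and the NFY motif CCAAT in 12 of 32 (37.5%) and in 42.9% (37.4% of all). Matches of different motifs overlapped in 0 cases. These are matches of letters and not tested sites.

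The E-boxes that lie before the gene start are shown because Myc is the textbook activator of this gene class, and the E-box is in capitals.
Nop2 (Nol1), chr6:125131806-125131845, plus strand: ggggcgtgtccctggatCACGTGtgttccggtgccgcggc
Nol11, chr11:107189402-107189441, minus strand: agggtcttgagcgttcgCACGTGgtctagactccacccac
Imp4, chr1:34439691-34439730, plus strand: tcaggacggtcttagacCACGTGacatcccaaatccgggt
Utp18, chr11:93885767-93885803, minus strand: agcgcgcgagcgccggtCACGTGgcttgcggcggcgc
Nol1 rose by 0.59, Nol11 by 0.43 and Imp4 by 0.27, and Utp18 read 0.13 and did not pass. Pes1 and Utp20, with an E-box after the start, read -0.23 and 0.34. Of the genes with this motif only Pes1 read below 0, and only on its brighter probe, while its other probe read 0.28.

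Sequences holding the interferon regulatory factor core are shown because IRF7 is the gene that was introduced, with the core in capitals.
Nip7, chr8:107056690-107056732, plus strand: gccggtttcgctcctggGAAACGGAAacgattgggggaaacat
Nol10, chr12:17348300-17348342, plus strand: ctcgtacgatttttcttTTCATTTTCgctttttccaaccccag
Imp3, chr9:56937465-56937499, plus strand: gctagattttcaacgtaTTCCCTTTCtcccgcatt
Nip7 rose by 0.53 and Nol10 by 0.65, whereas Imp3 read 0.01 and did not pass. The core in Nol1 lay after the start. The ETS motif, which family members of Ets1 read, stood in Ebna1bp2, Heatr1, Nip7, Nol10, Nol12 and Polr1e, which rose. Of the genes with this motif only Polr1c fell. An example of each direction is shown with the motif in capitals.
Heatr1, chr13:12395342-12395374, plus strand: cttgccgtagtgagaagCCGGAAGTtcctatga
Polr1c, chr17:46248063-46248104, minus strand: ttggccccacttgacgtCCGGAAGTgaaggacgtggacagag
Heatr1 rose by 0.62 and Polr1c fell by 0.20, a fall that depended on scaling between arrays, as given below.

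Making the precursor RNA is the first step of the pathway. Of 6 genes of RNA polymerase I transcription, 5 rose and 1 fell, beside 31.9% of all genes called higher and 29.1% lower. Their median log2 change was 0.27, and none reached 1.5-fold. Polr1a encodes the largest catalytic subunit. Its levels (log2 signal relative to the 75th percentile of the array, the scale of all levels below) were 2.51, 2.57 and 2.53 in the base-vector cells and 2.90, 2.83 and 2.83 in the IRF7 cells. The groups did not overlap, and Polr1a rose by 0.31 (SE 0.035, adjusted p = 0.00061). A second Polr1a probe read 0.45 (SE 0.12).

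Polr1b, the other large subunit of the catalytic centre, had levels of 0.52, 0.57 and 0.63 against 0.73, 0.87 and 0.77 and rose by 0.22 (SE 0.052, adjusted p = 0.0135). Polr1e, part of a subunit pair particular to polymerase I, was at -0.60, -0.60 and -0.58 against -0.29, -0.24 and -0.26 and rose by 0.33 (SE 0.027). The arrays of each group were close together for Polr1e, with SDs of 0.01 and 0.02. Polr1c and Polr1d form the assembly platform that polymerases I and III share, and they moved apart.

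Polr1c was at 3.82, 3.78 and 3.85 in the base-vector cells and 3.63, 3.60 and 3.63 in the IRF7 cells, and fell by 0.20 (SE 0.030, adjusted p = 0.00239). Polr1d was at 3.22, 3.11 and 3.26 against 3.35, 3.36 and 3.42 and rose by 0.18 (SE 0.049, adjusted p = 0.0205), with 0.17 from its second probe. Both changes were separated from the other group on every array, but each depended on a setting. Without scaling between arrays Polr1c read 0.0031 (adjusted p = 0.98). Polr1d did not pass with slide as a block (0.16, adjusted p = 0.148), within slide 1 (adjusted p = 0.0726) or without IRF7 replicate 3 (adjusted p = 0.0691). Tcof1, the nucleolar phosphoprotein treacle that recruits polymerase I, rose by 0.32 (SE 0.051), and read 0.31 on slide 1 alone (adjusted p = 0.0512).

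The snoRNP proteins held both the largest rise and a fall. Nolc1, a chaperone that carries snoRNPs to the nucleolus, was at 1.55, 1.47 and 1.69 in the base-vector cells and at 2.52, 2.34 and 2.40 in the IRF7 cells. All IRF7 arrays were well above the highest base-vector array, and Nolc1 was 1.80-fold higher (log2 change 0.85, SE 0.076, adjusted p = 0.000249). Its second probe read 0.44 (SE 0.038), so the size of the rise differed between probes while the direction did not. Dkc1, the pseudouridine synthase of the box H/ACA snoRNPs, was at -0.06, -0.17 and -0.03 against 0.54, 0.53 and 0.61 and was 1.56-fold higher (0.65, SE 0.048), with 0.73 from a second probe.

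The box C/D snoRNPs, which add methyl groups to ribosomal RNA, are built around Nol5 (Nop58), Nol5a (Nop56) and the methyltransferase Fbl (fibrillarin). The scaffold proteins rose, Nol5 by 0.43 (SE 0.040) and Nol5a by 0.39 (SE 0.045). Fbl was at 5.73, 5.61 and 5.71 in the base-vector cells and 5.49, 5.39 and 5.48 in the IRF7 cells and fell by 0.23 (SE 0.047, adjusted p = 0.00702). The enzyme and its scaffold proteins thus read in opposite directions in the same cells. Fbl lies on chromosome 7 (mm7, 25113080 to 25113139), whose 1136 tested genes changed by a median of -0.38 on the log2 scale, and in the stretch from 20 to 30 Mb, where 180 genes had a median of -0.48. Whether Fbl shares in what sets that stretch low was not tested. Without scaling Fbl read -0.03 (adjusted p = 0.819).

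Of 12 listed genes of the small subunit processome, 9 rose, none fell and 3 did not pass, with a median of 0.37. Of all genes, 31.9% were called higher and 29.1% lower. Rrp9, a component of the U3 snoRNP at the heart of the processome, was at 1.02, 0.99 and 0.97 in the base-vector cells and 1.78, 1.77 and 1.80 in the IRF7 cells. The 3 arrays within each group nearly coincided, and Rrp9 was 1.73-fold higher (log2 change 0.79, SE 0.027, adjusted p = 8.58e-06). Nol10, the relative of yeast Enp2, was at -3.07, -3.42 and -3.59 against -2.68, -2.71 and -2.74 and rose by 0.65 (SE 0.13, adjusted p = 0.00725). The base-vector arrays of Nol10 were spread more widely than those of any other listed gene (SD 0.27, n = 3).

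Heatr1, the relative of yeast Utp10 that is also needed for polymerase I transcription, was 1.54-fold higher (0.62, SE 0.032). Its other probes read 0.48 and, for a probe above background on IRF7 arrays only, at least 1.63-fold higher. Nol11 rose by 0.43, Nol6 by 0.42, Utp15 by 0.40, Utp20 by 0.34 and Imp4 by 0.27, all on the log2 scale. Mphosph10, which works in a complex with Imp3 and Imp4, rose by 0.15 (SE 0.043, adjusted p = 0.0268). That call ended on leaving out replicate 1 or 2 of the base vector (adjusted p = 0.0524 and 0.0632) or replicate 1 or 3 of IRF7 (adjusted p = 0.0683 and 0.0851), with no filter on dim probes (adjusted p = 0.053), with slide as a block (0.13, adjusted p = 0.184) and within slide 1 (adjusted p = 0.143). Mphosph10 lies on chromosome 7 near 60 Mb, where 33 neighbours within 5 Mb had a median of -0.57.

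The members of the processome that did not pass were Imp3 at 0.01 (SE 0.051), Nol7 at 0.02 (SE 0.039) and Utp18 at 0.13 (SE 0.066, adjusted p = 0.14). The levels of Utp18 overlapped between groups, at 0.08, -0.08 and 0.08 against 0.23, 0.07 and 0.18. Its other probe, which was above background on no base-vector array and on all IRF7 arrays, was at least 1.04-fold higher. A second Nol7 probe read 0.34.

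Of 11 genes for assembling the 60S subunit, 9 rose, 1 fell and 1 did not pass, with a median of 0.42. The shares of all genes were 31.9% higher and 29.1% lower. Rrs1, which brings the 5S ribonucleoprotein into the early 60S particle, was at 1.10, 1.05 and 1.07 in the base-vector cells and 1.84, 1.81 and 1.90 in the IRF7 cells. It was 1.72-fold higher (log2 change 0.78, SE 0.034, adjusted p = 1.83e-05), with no overlap between groups. Rrp1b rose by 0.62 (SE 0.072), Nol1, which methylates the large ribosomal RNA, by 0.59 (SE 0.035), and Nip7 by 0.53 (SE 0.035). Ebna1bp2 rose by 0.42, the GTPase Gnl3 (nucleostemin) by 0.35, the RNA kinase Nol9 by 0.31 and Nol12 by 0.28. Nol12 was at 4.96, 4.97 and 5.00 against 5.31, 5.23 and 5.21, and its dimmer second probe read 1.02 (SE 0.085).

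The PeBoW complex, a trimer of Pes1, Bop1 and Wdr12 required for the large ribosomal RNA, did not move together on the brightest probes. Bop1 was at 2.33, 2.32 and 2.40 in the base-vector cells and 2.86, 2.90 and 2.87 in the IRF7 cells and rose by 0.53 (SE 0.034, adjusted p = 6.9e-05). Pes1 was at 3.47, 3.44 and 3.48 against 3.24, 3.20 and 3.27 and fell by 0.23 (SE 0.032, adjusted p = 0.00152). Wdr12 was at 2.05, 1.99 and 2.11 against 2.04, 2.03 and 2.04, with overlapping groups and a change of -0.01 (SE 0.037). On these probes a gene of the trimer was thus found in each class, higher, lower and not passing. That split depends on the probes chosen for Pes1 and Wdr12, whose other probes are given next.

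The fall of Pes1 rests on its brighter probe. That probe (mm7, chromosome 11, 3930919 to 3930978) gave, before scaling, signals of 14270, 12471 and 13094 for the base vector and 12220, 12785 and 14070 for IRF7. The dimmer probe (3931895 to 3931954) had signals of 3353, 2981 and 3068 against 4138, 4314 and 4617, and read 0.28 (SE 0.029). The probes therefore gave opposite signs, and their mean read 0.025 (adjusted p = 0.499). Without scaling the brighter probe read -0.03 (adjusted p = 0.822). For Wdr12 the other probes read 0.08 and 0.56, and the mean of its 3 probes passed at 0.21 (adjusted p = 0.00259).

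The abundant nucleolar proteins that are not bound to a single step were split. Npm1 (nucleophosmin), a chaperone of the nucleolus, was at 7.41, 7.35 and 7.42 in the base-vector cells and 7.21, 7.03 and 7.15 in the IRF7 cells. Every IRF7 array lay below every base-vector array, and Npm1 fell by 0.26 (SE 0.054, adjusted p = 0.00738), with -0.24 from a second probe. Without scaling Npm1 read -0.06 (adjusted p = 0.603), and within slide 1 -0.28 (adjusted p = 0.0615). Ncl (nucleolin), which binds the nascent precursor, was at 6.04, 5.98 and 6.08 against 6.17, 6.15 and 6.18 and rose by 0.14 (SE 0.035, adjusted p = 0.0171).

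The rise of Ncl did not pass with slide as a block (0.13, adjusted p = 0.131), within slide 1 (adjusted p = 0.0779) or without IRF7 replicate 3 (adjusted p = 0.0619). The 3 dimmer Ncl probes read 0.16, 0.30 and 0.60. Ddx21, an RNA helicase that couples transcription to processing, had signals before scaling of 2973, 2446 and 2581 for the base vector and 4719, 4860 and 5345 for IRF7, without overlap, and was 1.63-fold higher (log2 change 0.70, SE 0.041, adjusted p = 5.1e-05). Further Ddx21 probes read 0.65 and 0.19. Nol8 rose by 0.36 (SE 0.045), with 0.34 from its second probe.

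Other probes of the same genes gave a second reading that the choice of the brightest probe did not use. Of the 38 genes, 21 had more than 1 probe above background on at least 3 arrays and on at least 1 array of each group, with 28 other probes in all. The dimmer probes of Utp18 and Heatr1 that no base-vector array read above background give only bounds and are left out. Of the 28, 24 were called higher and 1 lower in a fit over all probes kept, in which 29.9% of the 23059 probes measured in both groups were called higher and 28.4% lower. The 28 probes had a median change of 0.32, and 27 were above 0. The probes of a gene lay more than 0.5 apart in Nol12, Wdr12, Ddx21 and Pes1, and had opposite signs in Pes1 and Wdr12. In 11 of the 21 genes the brightest probe changed less than the mean of the others. Probes of a gene share its transcripts and are not replicates.

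**Figure D2:**
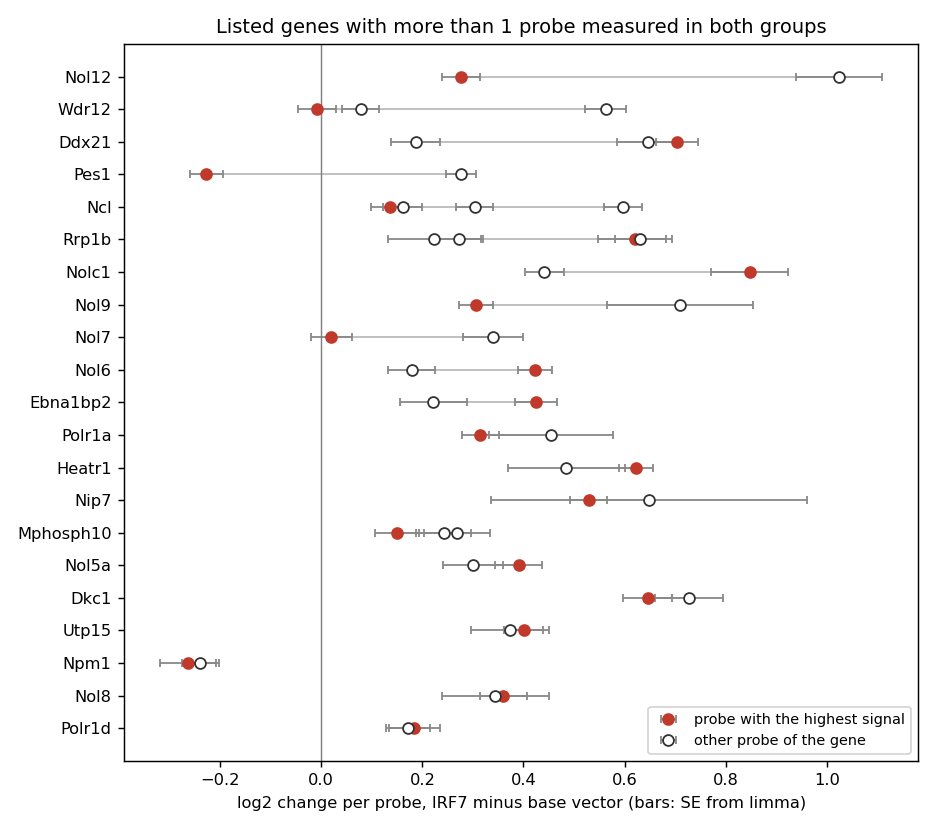
Log2 change per probe, IRF7 minus base vector, for the 21 listed genes with more than 1 probe measured in both groups, ordered by how far apart their probes lie. Filled points are the probe with the highest signal, open points the other probes, and bars the SE from limma over 3 arrays a group. The Pes1 probes fall on opposite sides of 0, and the Npm1 probes both lie below it.

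The 38 genes lie on 18 chromosomes, with at most 5 on any of them. The median change of the other tested genes within 5 Mb of a listed gene ran from -0.57 to 0.20. Of the 38 genes, 32 changed more in the positive direction than their neighbours, and 33 had a change above 0. The share of all genes that lie above their neighbours was not computed, so the 32 are a description only. Without the genes on chromosome 7, 29 of 36 listed genes rose and 3 fell, with a median of 0.36, beside 33.8% of all such genes called higher and 26.1% lower. Of the genes that fell, Pes1 and Npm1 had neighbours with medians of -0.26 and -0.17 on chromosome 11. Polr1c had neighbours with a median of 0.05.

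**Figure D3:**
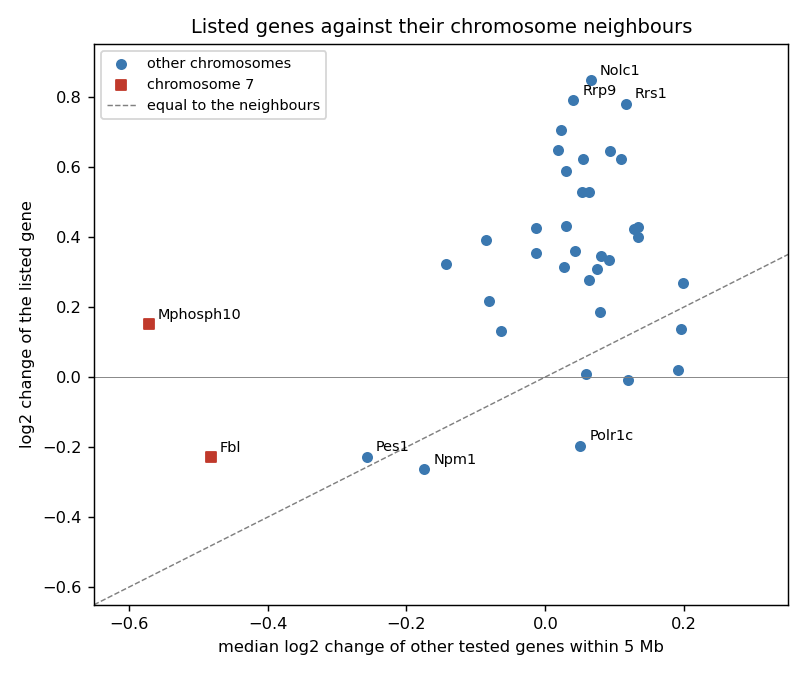
Each point is a listed gene, with the median log2 change of other tested genes within 5 Mb on the horizontal axis and its own log2 change on the vertical axis; red squares are the 2 genes on chromosome 7 and the dashed line marks equal change. Most points lie above the line, and Fbl and Mphosph10 stand at neighbour medians of -0.48 and -0.57.

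Further genes of ribosome making were read from the same fit over all genes, where 31.9% were called higher and 29.1% lower. They were listed by function, but with earlier results of these data known, so their counts are a description. Of 47 other genes of the small subunit processome and 40S assembly, 36 rose, 4 fell and 7 did not pass (median 0.30). Bysl, needed for a late step of 40S assembly, rose by 0.83 (SE 0.037), Ltv1, which helps the 40S particle mature in the cytoplasm, by 0.88 (SE 0.055), Utp23 by 0.78 and Utp25 by 0.59. Of 52 other genes of 60S assembly, 38 rose, 6 fell and 8 did not pass (median 0.25). The helicase Ddx24 rose by 1.58 (SE 0.061), Urb2 by 0.80 and Noc2l by 0.46, while Nop53, which docks the exosome on the 60S particle, fell by 1.06 (SE 0.029, adjusted p = 3.99e-06). The Nop53 probe is not placed on a chromosome in mm7, so Nop53 could not be set against its neighbours.

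Of 16 other genes of polymerase I transcription, 9 rose, 1 fell and 6 did not pass (median 0.22). In the same fit 31.9% of all genes were called higher and 29.1% lower. Rrn3, which makes the polymerase competent to start, rose by 0.43 (SE 0.034), and the subunits shared by all nuclear polymerases Polr2f, Polr2e and Polr2h rose by 0.58, 0.33 and 0.31. Of 26 genes of the exosome, RNase MRP and other trimming enzymes, 16 rose, 3 fell and 7 did not pass (median 0.25). Pop1 and Pop5, protein subunits of RNase MRP, rose 2.30-fold and by 0.80 on the log2 scale and the exosome subunit Exosc1 by 0.63, while Pop4, of the same enzyme as Pop1 and located on chromosome 7, fell by 0.66.

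The other snoRNP genes were divided, with 6 of 15 higher, 3 lower and 6 not passing (median 0.06). For these and the next lists, the shares of all genes were 31.9% higher and 29.1% lower. Gar1, a partner of Dkc1, rose by 0.48, Tgs1 by 0.42 and Znhit6 by 0.31, and the assembly factor Pih1d1, on chromosome 7, fell by 0.78. Of 7 genes that host snoRNAs in their introns, 5 rose and none fell (median 0.25), with Snhg8 at 1.06, Eif4a2 at 0.51, Rcc1 at 0.45 and Gas5 at 0.25. Of 8 chromatin regulators of ribosomal DNA, 4 rose and none fell (median 0.08). Smarca5 and Suv39h1, known from its silencing, rose by 0.27 and 0.22, Kdm2a, a histone demethylase, by 0.25, and Sirt7, known as an activator of polymerase I, by 0.16.

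In the Myc network 3 of 10 genes rose, 6 fell and 1 did not pass (median -0.23). The shares were 30% higher and 60% lower, beside 31.9% and 29.1% of all genes. The list holds Myc together with repressors that compete with it, so its shares and median pool genes of opposing roles. Mxd4, Mnt and Mxi1, repressors that compete with Myc for its partner Max, fell by 1.16 (SE 0.031), 0.48 (SE 0.025) and 0.42 (SE 0.034). Mlx, the partner of a parallel set of sugar-responsive factors, rose by 0.76 (SE 0.035). Myc itself, named after its values were seen, went from 2.89 ± 0.04 (SD, n = 3) to 3.13 ± 0.05 (SD, n = 3), a rise of 0.24 (SE 0.040, limma adjusted p = 0.00312).

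Cytosolic ribosomal protein genes, whose products these factors assemble, read the other way in the same fit, on values scaled between arrays. Of 77 tested, none rose, 48 fell and 29 did not pass, with a median log2 change of -0.14. Among all genes tested, 31.9% were called higher and 29.1% lower. Rpl13a fell by 0.60, Rpl18 fell by 0.57 and Rps3 fell by 0.55, and all of these lie on chromosome 7. The 63 ribosomal protein genes on other chromosomes had 0 higher, 34 lower and a median of -0.12, and the 36 listed genes off chromosome 7 had 29 higher and 3 lower. Of all genes off chromosome 7, 33.8% were called higher and 26.1% lower. The difference between the gene classes was not tested, since the listed genes were chosen with results of these arrays known. Without scaling between arrays, the median of all genes moved from 0.03 to 0.23 and that of the 38 to 0.55. In those values 31 of the 38 rose and none fell, beside 41.8% of all genes called higher and 11.0% called lower. Scaling subtracts 1 value per array, so leaving it out moves every gene up by about the same amount as the median of all genes. That shift is larger than the fall of the ribosomal protein median, -0.14, so the sign of that median depends on scaling. It is smaller than the median fall of the 14 ribosomal protein genes on chromosome 7, -0.48. Calls of ribosomal protein genes without scaling were not counted. Most ribosomal protein genes lay in the top 10% of all genes by level. The 11 listed genes at that level had a median of 0.14, with 6 higher and 3 lower, beside 37.7% and 27.9% of all genes there.

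**Figure D4:**
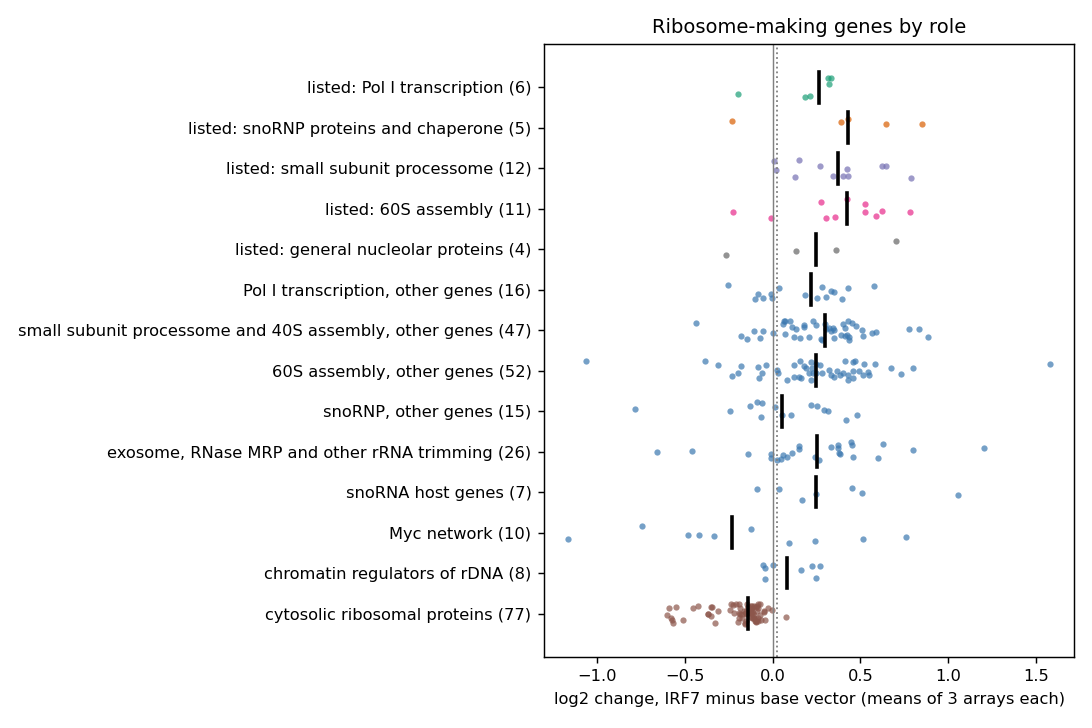
Points are genes, placed by log2 change from base vector to IRF7 (means of 3 arrays each), in the 5 roles of the listed genes, 8 lists of other genes of the pathway and the cytosolic ribosomal proteins, with the number of genes in brackets. Black bars are medians and the dotted line is the median of all genes tested, 0.03; the roles of the listed genes have medians from 0.25 to 0.43 and the ribosomal proteins one of -0.14.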

How the data were processed

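Total RNA of 6 cultures was labelled with Cy3 from 0.2 ug and hybridised to single-colour mouse arrays, per the labels' protocols, and the submitters' processing notes name Agilent Feature Extraction 9.5.3.1 as the reading software. Per the file headers, the deposited intensity of each spot is linear, with background subtracted and spatial trends removed array by array, and with no scaling between arrays. The deposited value table held the same intensity (largest difference 0), with column medians of 56.5 to 79.0. Its values are thus unlogged, uncentred and unscaled. Control spots (1639 of 45018) and 111 to 121 spots per array with outlier marks were left out, and 1 spot was saturated. The array design uses mouse build mm7, per the file headers, and probe coordinates are on that build.

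Spots of a probe were averaged (41174 probes). RefSeq (GRCm38.p6, names only) named 22944 probes by accession, 6664 by symbol and 3108 by older symbol, and 8458 kept the file's name. Log2 intensity minus the array's 75th percentile (1148 to 1458) was the level. A probe was kept if at least 3 of the 6 arrays read it well above background (23522 probes), and a gene took its brightest. limma 3.58.1 in R 4.3.3 (lmFit, eBayes, 4 residual and 1.64 prior degrees of freedom, no block) tested IRF7 against base vector with Benjamini-Hochberg adjustment over all 15416 genes. The fit was tested on simulated data. Python 3.11.15, pandas 2.3.3 and matplotlib 3.10.9 were used. A probe above background on no array of a group gives only a bound, computed from the lowest signal well above background on each array of that group. The p-values measure the spread between cultures of 1 pooled population per group, and the number of arrays limits the precision.

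The listed genes, the pathway lists and their roles were chosen with earlier results of these data known. Values on each array are given for the largest rises and falls, for polymerase I subunits and for genes whose probes disagree by over 0.5 or in sign. Of each other list, the 4 genes with the smallest p are named, except 1 that is not reported here. The alternatives were quantile normalization, normexp background correction (offset 50), centring on the median, no scaling, all dim probes kept or all 6 arrays required, the mean of a gene's probes or the brightest named by RefSeq, robust eBayes with a trend, slide 1 alone, a block for slide (fixed or random) or for replicate number, and leaving out each array.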

Additional observations from a re-analysis of the deposited data

How the results depend on the processing

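The count of 30 higher genes stayed within 26 to 33, and that of lower genes within 3 to 4, except for 0 lower without scaling. The median log2 change of the 38 moved to 0.34 with normexp, 0.32 with quantile normalization, 0.37 with median centring and 0.55 without scaling, and was 0.34 to 0.37 with an array left out. Of 38 genes, 26 kept their direction and side of the threshold under all 19 alternatives. Sign changes were found in 5 genes. Imp3 read -0.047 with quantile normalization, -0.034 within slide 1 and with slide as a block, and -0.039 to 0.034 with an array left out. Nol7 read -0.050 with quantile normalization and -0.0034 to 0.049 with an array left out. Wdr12 read 0.0082 with median centring, 0.19 without scaling, 0.21 as the mean of its probes and -0.036 to 0.021 with an array left out. Pes1 read 0.025 as the mean of its probes, and Polr1c 0.0031 without scaling. Nol7 (0.18) and Wdr12 passed as means of their probes. So did Utp18 (0.53), but that mean holds a probe with only a bound. Utp18 also passed without scaling (0.33). Without scaling 79.1% of all called genes were higher and with no filter on dim probes 32.8%, against 52.3%. The causes were not tested.

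Replicate numbers were not taken to pair the cultures, since the labels do not say so. Deviations of same-numbered arrays correlated at 0.04, 0.17 and 0.23 across genes, and each array correlated best with its own number. Whether the cultures were paired cannot be told from these data alone. With the replicate block 31 genes rose and 4 fell, beside 32.7% and 30.4% of all genes (Utp18 passed, adjusted p = 0.0219), and the median stayed at 0.35.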
